A study of Homo sapiens with 6 samples.

Results

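The miR-23/27/24 miRNAs come from a pair of paralogous clusters in the human genome, and this account follows them in MDA-MB-231 cells treated with Withaferin A (WA). The members were all rows of the deposited miRNA table whose names begin with miR-23a, miR-23b, miR-27a, miR-27b or miR-24, with every arm present, and 10 of the 413 listed miRNAs met this rule. All 10 passed the filter on low values that left 327 miRNAs for testing. MDA-MB-231 is an established triple-negative breast cancer cell line, and WA is a steroidal lactone from the plant Withania somnifera. Small RNA was sequenced from 3 vehicle libraries and 3 WA libraries, the latter from cells given 2 µM WA for 24 h. The study's methods give the vehicle as DMSO, whereas the sample labels describe these cells as not treated. All libraries came from a single cell line, so they say nothing of other breast cancer cells.

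A miRNA is cut from a hairpin in a longer primary transcript, and either arm of the hairpin (5p or 3p) can be loaded into the silencing complex, where its seed, bases 2 to 8, pairs with target messenger RNAs. Each miR-23/27/24 cluster carries a miR-23, a miR-27 and a miR-24 hairpin in one primary transcript, and the 3p arm is the usual guide strand. miR-23a and miR-23b are known repressors of mitochondrial glutaminase, miR-27a and miR-27b of FOXO1 and PPARG, and miR-24 of cell cycle genes such as E2F2 and MYC. The clusters have been studied in breast cancer, in blood vessel growth and in immune cells.

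The chromosome 19 cluster holds MIR23A, MIR27A and MIR24-2 on the minus strand of GRCh38.p14, from 13836287 to 13836659, a span of 373 bases within the long noncoding RNA gene MIR23AHG. The chromosome 9 cluster holds MIR23B, MIR27B and MIR24-1 on the plus strand, from 95085208 to 95086088, a span of 881 bases inside the protein-coding gene AOPEP. In GENCODE release 44 the MIR23B and MIR27B hairpins were intronic, since 7 AOPEP transcripts spanned each and 0 had an exon over them. For MIR24-1, 1 AOPEP transcript had an exon over the hairpin, and each chromosome 19 hairpin lay over an exon of the 1 spanning MIR23AHG transcript. All 10 members matched a RefSeq mature sequence. The 3p guides are printed first because the report turns on how close the paralogues are, with the seed in capitals.
hsa-miR-23a-3p: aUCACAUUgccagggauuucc
hsa-miR-23b-3p: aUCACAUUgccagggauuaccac
hsa-miR-27a-3p: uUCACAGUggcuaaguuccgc
hsa-miR-27b-3p: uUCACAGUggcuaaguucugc
hsa-miR-24-3p: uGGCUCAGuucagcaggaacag
Counted from 1 at the 5′ end, miR-23a-3p and miR-23b-3p differed over their shared 21 bases by 1 substitution, U19A. miR-27a-3p and miR-27b-3p differed by C19U alone. Both substitutions lie outside the seed, so each pair has a single seed. The seeds of miR-23a-3p and miR-27a-3p differed from each other at 1 base, U7G. miR-24-3p has the same sequence in MIR24-1 and MIR24-2, and its reads cannot be given to either cluster.

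The 5p arms differ more between the clusters, and they are shown because they tell the loci apart.
hsa-miR-23a-5p: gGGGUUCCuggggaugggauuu
hsa-miR-23b-5p: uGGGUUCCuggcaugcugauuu
hsa-miR-27a-5p: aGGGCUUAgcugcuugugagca
hsa-miR-27b-5p: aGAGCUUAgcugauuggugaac
hsa-miR-24-2-5p: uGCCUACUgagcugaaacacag
miR-23a-5p and miR-23b-5p differed at 7 of 22 bases and shared a seed. miR-27a-5p and miR-27b-5p differed at 8 of 22 bases, 1 of them in the seed. miR-24-2-5p is made by chromosome 19 only, and its chromosome 9 counterpart miR-24-1-5p was not analysed here.

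Each deposited value, called the normalized value here, is a read count scaled by the size factor of its library. In whole multiples of each library's smallest step, taken as reads, vehicle totals ran from 710878 to 4778066, and WA totals from 156442 to 2232934. Pearson correlations of log2(normalized value + 1) across the 413 miRNAs were 0.987 between vehicle replicates 2 and 3 and 0.964 between WA replicates 1 and 2. Vehicle replicate 1 correlated with the other vehicle libraries at 0.785 and 0.792, and WA replicate 3 with the other WA libraries at 0.630 and 0.641. WA replicate 3 correlated with vehicle replicates 1 to 3 at 0.772, 0.797 and 0.774, so by this measure it was nearer to every vehicle library than to its own group. These correlations include miRNAs listed at 0, which numbered 166, 146 and 52 in WA replicates 1 to 3. In vehicle replicates 1 to 3 they numbered 21, 3 and 2. The part of these zeros and of depth in the correlations was not tested. For the epithelial miR-200 family, 4 miRNAs (miR-200a-3p, miR-200b-3p, miR-200c-3p and miR-429) were chosen after their values were seen. miR-200a-5p, also listed, was left out. The 4 summed to normalized values of 1820 in vehicle replicate 1 and 1240 in WA replicate 3, of which miR-200b-3p alone gave 1459 and 642. The sum was 192 and 234 in vehicle replicates 2 and 3, and all 4 were listed at 0 in WA replicates 1 and 2. MDA-MB-231 is a mesenchymal-like line in which this family is usually low. Since vehicle replicate 1 and WA replicate 3 stand apart, results are given with and without them, and the part of that difference in each result was not tested. In bulk samples, fewer cells that express a miRNA and less of it per cell cannot be told apart.

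None of the 10 members differed between WA and vehicle at a limma adjusted p under 0.05, where 5.50% of the 327 tested miRNAs did. The study's cutoff, a p under 0.05 with a log2 fold change of at least 1.5 either way, was applied to unadjusted limma p-values. By it 1 member was counted, miR-23a-3p, against 26.3% of the tested miRNAs. The study used DESeq2, so these counts are not comparable with its own. The fold changes of 5 members lay above 0 and those of 5 below. Their median log2 fold change was -0.02, and that of all tested miRNAs was -0.91. Groups without overlap were found for 1 member, again miR-23a-3p, compared with 27.2% of the tested miRNAs. The members' share of calls was thus not above that of the table as a whole.

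**Figure D1:**
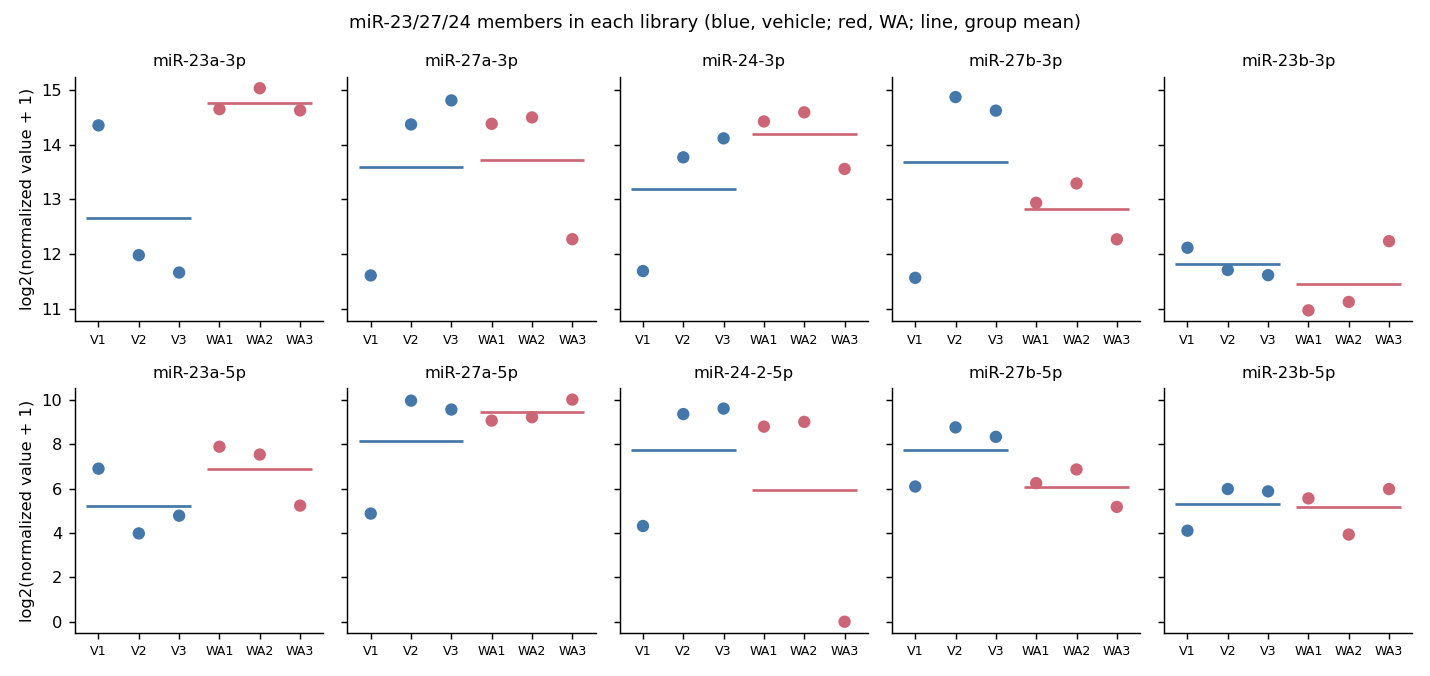
Level of each member in each library as log2(normalized value + 1), with 3p arms in the upper row and 5p arms in the lower row, points for single libraries (V, vehicle; WA, Withaferin A) and lines for group means. miR-23a-3p is the member whose WA points all lie above the vehicle points, vehicle replicate 1 and WA replicate 3 often lie far from their own group, and the point at the bottom is miR-24-2-5p, listed at 0 in WA replicate 3.

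miR-23a-3p, the chromosome 19 guide that acts on glutaminase, stood at normalized values of 20888, 4028 and 3231 in vehicle-treated libraries 1 to 3. After WA it stood at 25653, 33452 and 25266. All WA libraries lay above all vehicle libraries, but vehicle replicate 1 was close to the WA group and far from the other vehicle libraries. The log2 fold change was 2.11 (SE, standard error, 0.86, 95% interval 0.10 to 4.11), and its limma adjusted p of 0.176 did not pass. Without vehicle replicate 1 the log2 fold change was 2.95 with a limma adjusted p of 0.0256. Without WA replicate 3 it was 2.18 with a limma adjusted p of 0.104. By level, miR-23a-3p ranked 8, 4 and 17 among the 413 miRNAs in WA replicates 1 to 3, and 16, 38 and 45 in vehicle-treated libraries.

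miR-23b-3p, its chromosome 9 paralogue, had a narrow range. It was at normalized values of 4425, 3339 and 3126 in vehicle-treated libraries and at 2000, 2226 and 4810 in WA-treated libraries. The groups overlapped, with a log2 fold change of -0.37 (SE 0.63) and a limma adjusted p of 0.696. With single libraries left out it ran from -0.13 (without WA replicate 1) to -0.77 (without WA replicate 3). From the lowest to the highest library it varied 2.4-fold on the value + 1 scale, which was the 4th narrowest spread of the 327 tested miRNAs, whose median was 29.9-fold. The spread of the other 3p members ran from 7.48-fold for miR-24-3p to 10.4-fold for miR-23a-3p.

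miR-27a-3p, a repressor of FOXO1 from the chromosome 19 transcript, was at normalized values of 3114, 21134 and 28678 in vehicle-treated libraries. In WA-treated libraries it was at 21305, 23105 and 4932. Each group had 1 library far below the other 2, namely vehicle replicate 1 and WA replicate 3, and the groups overlapped. The log2 fold change was 0.12 (SE 1.08, 95% interval -2.39 to 2.64), so changes of over 4-fold either way lie within the interval.

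miR-27b-3p, with the same seed but from chromosome 9, was at normalized values of 3022, 29914 and 25179 in vehicle-treated libraries. In WA-treated libraries it was at 7826, 10004 and 4926. Vehicle replicate 1 was the lowest of all, below every WA library, and the other vehicle libraries were the highest. The log2 fold change was -0.85 (SE 0.99) with a limma adjusted p of 0.597. Without vehicle replicate 1 it was -1.91.

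miR-24-3p, the guide that both clusters make, was at normalized values of 3293, 13927 and 17716 in vehicle-treated libraries. In WA-treated libraries it was at 21948, 24640 and 12023. WA replicate 3 lay below 2 of the vehicle libraries, so the groups overlapped, and the log2 fold change of 1.00 (SE 0.84) had a limma adjusted p of 0.451. Without vehicle replicate 1 the log2 fold change was 0.25, and without vehicle replicate 1 and WA replicate 3 together it was 0.57.

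The 5p arms were far less abundant, as is usual for the passenger strand, and together made up between 0.716% and 2.93% of the members' reads in a library. miR-23a-5p was at normalized values of 119, 14.9 and 26.6 in vehicle-treated libraries and at 238, 186 and 36.8 in WA-treated libraries. miR-27b-5p was at 67.7, 436 and 324 in vehicle-treated libraries and at 75.4, 116 and 35.3 in WA-treated libraries. For both, vehicle replicate 1 lay among the WA values, and the limma adjusted p was 0.443 for miR-23a-5p and 0.382 for miR-27b-5p. miR-27a-5p was at 28.4, 1008 and 763 in vehicle-treated libraries and at 539, 600 and 1042 in WA-treated libraries, with a limma adjusted p of 0.558. miR-23b-5p lay between 14.3 and 62.5 in all libraries, or from 8 to 219 reads, and its limma adjusted p was 0.932.

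miR-24-2-5p, the chromosome 19 passenger of miR-24, was listed at 0 in WA replicate 3, where a count of 0 allows up to 3 reads or a normalized value of 2.25. It was at 446 and 518 in WA replicates 1 and 2, and at 19, 662 and 786 in vehicle-treated libraries. In the same WA replicate 3, miR-24-3p had 16002 reads and miR-27a-5p, from the neighbouring hairpin, had 1387. In the other 5 libraries the log2 ratio of miR-24-2-5p to miR-27a-5p stayed between -0.61 and 0.04, so these passengers were at similar levels everywhere but there. The log2 fold change of miR-24-2-5p was -1.83 (SE 2.66) with a limma adjusted p of 0.643, and without WA replicate 3 it was 1.14.

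**Figure D2:**
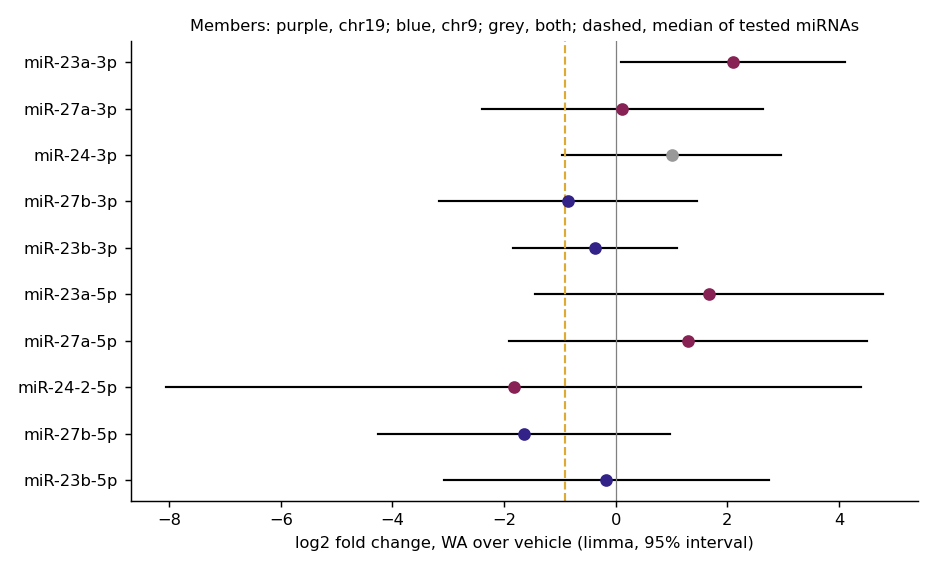
Log2 fold change of each member, WA over vehicle, with its 95% interval from limma (purple, chromosome 19; blue, chromosome 9; grey, both clusters; dashed line, median of the tested miRNAs). The interval of miR-23a-3p, from 0.10 to 4.11, is the only one of the 10 that leaves out 0 before adjustment.

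The levels above move with the size factor of each library, so the clusters were next compared within a library. There that factor cancels, apart from the 1 added to each value in the fitted log2 ratios. The ratio of miR-23a-3p to miR-23b-3p was 4.72, 1.21 and 1.03 from the first to the third vehicle library. After WA it was 12.8, 15.0 and 5.25. Every WA library lay above every vehicle library, although vehicle replicate 1 and WA replicate 3 were close to each other. On the log2 scale the vehicle mean was 0.85 ± 1.21 (SD, n = 3) and the WA mean was 3.33 ± 0.82 (SD, n = 3). The difference of 2.48 (SE 0.84, 95% interval 0.37 to 4.58) had an unadjusted p of 0.0288 and a limma adjusted p of 0.183 over the 27 a/b name pairs tested. The exact permutation test, two-sided, gave p = 0.1, the smallest that 3 libraries against 3 allow.

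The ratio of miR-27a-5p to miR-27b-5p was 0.420, 2.31 and 2.35 in vehicle-treated libraries. In WA-treated libraries it was 7.15, 5.17 and 29.5. Here too the groups did not overlap, and the log2 difference was 2.94 (SE 1.05) with a limma adjusted p of 0.183 (exact permutation test, two-sided p = 0.1). The extreme WA value was that of WA replicate 3, where miR-27a-5p had 1387 reads and miR-27b-5p had 47.

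The remaining pairs overlapped between the groups. The ratio of miR-27a-3p to miR-27b-3p was 1.03, 0.707 and 1.14 in vehicle-treated libraries and 2.72, 2.31 and 1.00 in WA-treated libraries. Its log2 difference was 0.97 (SE 0.61) with a limma adjusted p of 0.424. The ratio of miR-23a-5p to miR-23b-5p was 7.33, 0.237 and 0.458 in vehicle-treated libraries and 5.12, 13 and 0.590 in WA-treated libraries. There, vehicle replicate 1 lay with WA replicates 1 and 2, and WA replicate 3 with the other vehicle libraries. All 4 mean differences were towards the chromosome 19 paralogue, but the median log2 difference over the 27 a/b pairs was also above 0, at 0.48. The 4 ratios are both arms of the miR-23 and miR-27 hairpins, so they are not separate observations. At a limma adjusted p under 0.05, 0 of the 4 pairs passed, where 0 of the 27 pairs (0%) did. At an unadjusted p under 0.05, 2 of the 4 were counted, against 22.2% of the pairs. Groups without overlap were found for 2 of the 4 and for 29.6% of the pairs.

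**Figure D3:**
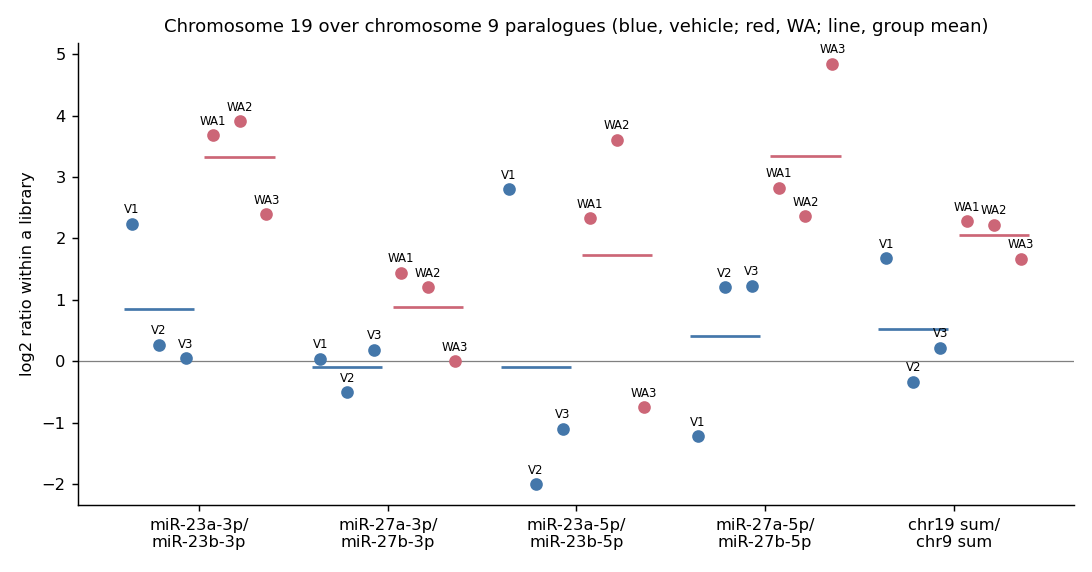
Log2 ratio of the chromosome 19 to the chromosome 9 paralogue within each library for 4 pairs, and of the summed cluster-specific members (points, single libraries; lines, group means; V, vehicle). The WA points lie above all vehicle points for miR-23a-3p/miR-23b-3p and miR-27a-5p/miR-27b-5p, while V1 reaches the WA points for miR-23a-5p/miR-23b-5p and for the sums.

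Summed over the members that only one cluster makes, the 5 chromosome 19 miRNAs held normalized values of 24168, 26846 and 33485 in vehicle-treated libraries and of 48181, 57861 and 31277 in WA-treated libraries. The 4 chromosome 9 miRNAs held 7531, 33751 and 28687 in vehicle-treated libraries and 9948, 12360 and 9834 in WA-treated libraries. The log2 ratio of these sums was 1.68, -0.33 and 0.22 in vehicle-treated libraries and 2.28, 2.23 and 1.67 in WA-treated libraries. The groups overlapped narrowly, since vehicle replicate 1 lay just above WA replicate 3, and the difference in mean of 1.53 had p = 0.2 (exact permutation test, two-sided). Without vehicle replicate 1 the difference was 2.11.

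Without vehicle replicate 1 and WA replicate 3 together, a comparison of 2 libraries with 2 chosen after seeing the data, 5 of the 10 members had a limma adjusted p under 0.05. These were miR-23a-3p and miR-23a-5p, higher in WA, and miR-23b-3p, miR-27b-3p and miR-27b-5p, lower. The log2 fold changes were 3.02, 3.34, -0.61, -1.63 and -2.0 in that order. All 4 paralogue ratios passed as well. In that comparison 71.9% of all tested miRNAs and 70.4% of all a/b pairs passed, so these shares do not single out the members. By the study's cutoff 4 of the 10 were counted there, against 61.8% of the tested miRNAs.

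Leaving out vehicle replicate 1 alone, 1 of the 10 members passed at a limma adjusted p under 0.05 (background 6.42%) and 3 met the study's cutoff (26.3%). Leaving out WA replicate 3 alone, 0 passed (45.0%) and 0 met the cutoff (51.1%), although the table as a whole gained many calls. The paralogue pairs gave 0 of 4 (25.9%) and the hairpins 0 of 4 (15.0%) without WA replicate 3, and the hairpins gave 0 of 4 (40.0%) without both libraries. With no filter on low values 0 members passed (12.8%) and 1 met the cutoff (33.7%).

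Since the paralogous guides differ at 1 base near the 3′ end, reads that stop before it match both, and the rule by which the authors assigned such reads is not given in the sources used here. miR-27a-3p held 50.8% of the reads of its pair in vehicle replicate 1 (Wilson 95% interval 49.3% to 52.2%) and 50.0% in WA replicate 3 (49.2% to 50.9%). The counts behind these shares were 2299 against 2231 reads and 6565 against 6557 reads. In the other libraries the share was 41.4% and 53.2% in vehicle replicates 2 and 3 and 73.1% and 69.8% in WA replicates 1 and 2. For the other guide pair that differs at 1 base, miR-23a-3p held 82.5%, 54.7% and 50.8% of the reads in vehicle replicates 1 to 3 and 92.8%, 93.8% and 84.0% after WA. The share nearest to 50% was in WA replicate 3 for the miR-27 pair and in vehicle replicate 3 for the miR-23 pair. In vehicle replicate 3 both pairs were split nearly evenly, at 53.2% and 50.8%. The part of read assignment in these splits was not tested. Intervals cover counting error only. In the same table miR-365a-3p and miR-365b-3p, identical over 22 bases and with 1 locus each, had equal values in 6 of 6 libraries. miR-199a-3p and miR-199b-3p, also identical over 22 bases, have 2 loci and 1 locus. Their values were equal only in vehicle replicate 1, where both were listed at 0. The ratio of miR-199a-3p to miR-199b-3p was 1.93 and 1.86 in vehicle replicates 2 and 3. After WA it was 2.05, 2.02 and 2. Whether reads were counted once for each locus was not tested. With the paralogues summed before the fit, an alternative added after seeing the data, the log2 fold change was 1.55 (SE 0.76, limma adjusted p 0.235) for miR-23a-3p plus miR-23b-3p and -0.28 (SE 1.05, limma adjusted p 0.873) for miR-27a-3p plus miR-27b-3p.

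Members of one transcript did not keep a fixed order. The log2 ratio of miR-27a-3p to miR-23a-3p was -2.75, 2.39 and 3.15 in vehicle-treated libraries. In WA-treated libraries it was -0.27, -0.53 and -2.36. The vehicle values covered the whole WA range, and the exact permutation test gave a two-sided p = 0.4. In vehicle replicates 2 and 3 miR-27a-3p was the more abundant of the pair, and in the other 4 libraries miR-23a-3p was. On chromosome 9, the log2 ratio of miR-27b-3p to miR-23b-3p was -0.55, 3.16 and 3.01 in vehicle-treated libraries and 1.97, 2.17 and 0.03 in WA-treated libraries, with an exact permutation test two-sided p = 0.6. In both clusters vehicle replicate 1 and WA replicate 3 had the lowest ratios.

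The shared guide miR-24-3p was set against each of the 4 other guides as a description, with no test and no count over other miRNA pairs. The log2 ratio of miR-24-3p to miR-27b-3p was 0.12, -1.10 and -0.51 in vehicle-treated libraries and 1.49, 1.30 and 1.29 in WA-treated libraries. These groups did not overlap, and this held for 1 of the 4 ratios. The log2 ratio of miR-24-3p to miR-27a-3p was 0.08, -0.60 and -0.69 in vehicle-treated libraries and 0.04, 0.09 and 1.29 in WA-treated libraries. Against miR-23a-3p the difference in mean log2 ratio was -1.11, and against miR-23b-3p it was 1.37. In all of these but the ratio to miR-27b-3p the groups overlapped.

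Together the members held 3.63%, 5.46% and 6.23% of all listed miRNA reads in vehicle-treated libraries. After WA they held 8.83%, 9.40% and 3.17%. WA replicate 3 was the lowest of all 6 libraries and the other WA libraries were the highest, and the exact permutation test gave a two-sided p = 0.4. miR-23a-3p alone ranged from 0.252% of a library in vehicle replicate 3 to 3.31% in WA replicate 2, whereas miR-23b-3p stayed between 0.221% and 0.460%.

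**Figure D4:**
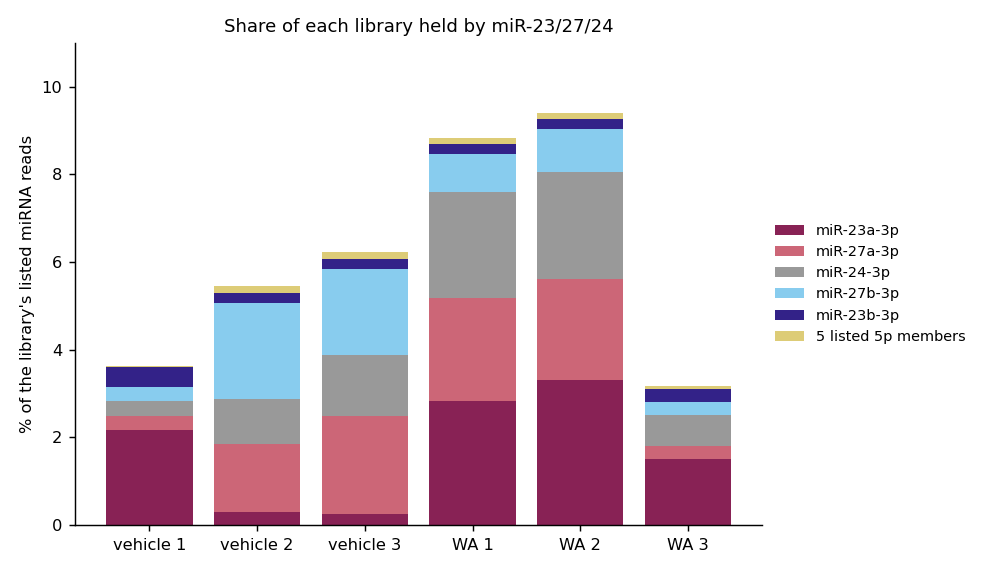
Percent of the listed miRNA reads of each library held by the 5 guide members and by the 5 listed 5p arms together (stacked bars, 1 library each). miR-23a-3p takes 2.17% of vehicle replicate 1 and under 0.3% of vehicle replicates 2 and 3, and the total is highest in WA replicates 1 and 2 at 8.83% and 9.40%.

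Arm use was compared within each hairpin, whose arms come from the same primary transcript. The size factor cancels there, apart from the 1 added to each value before the log. Reads that match both 3p paralogues may come from the other cluster. The 3p arm exceeded the 5p arm in all 6 libraries for all 4 hairpins with both arms listed. The log2 ratio of miR-27b-3p to miR-27b-5p was 5.46, 6.10 and 6.27 in vehicle-treated libraries and 6.68, 6.42 and 7.08 in WA-treated libraries. The groups did not overlap, but the difference of 0.78 (SE 0.90) had a limma adjusted p of 0.731 over the 80 hairpins tested. For miR-27a the log2 ratio was 6.73, 4.39 and 5.23 in vehicle-treated libraries and 5.30, 5.26 and 2.24 in WA-treated libraries. In WA replicate 3 the miR-27a 3p arm was only 4.73 times the 5p arm, compared with between 21.0 and 109 times in the other libraries. For miR-23a the ratio ran from 6.75 to 9.38 and for miR-23b from 5.40 to 8.0 over the 6 libraries, on the log2 scale. Of the 4 hairpins 0 passed by limma, where 0 of the 80 (0%) passed. At an unadjusted p under 0.05 none of the 4 was counted, against 21.2% of the hairpins, and groups without overlap were found for 1 of the 4, against 26.2%.

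**Figure D5:**
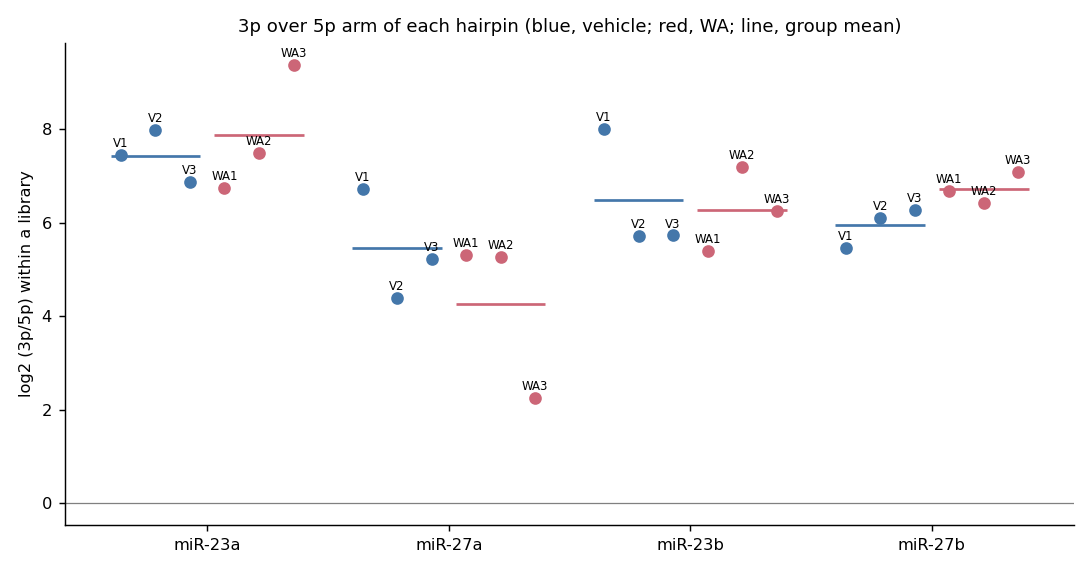
Log2 ratio of the 3p to the 5p arm of each hairpin within each library (points, single libraries; lines, group means; V, vehicle). All points lie above 0, and the lowest is that of miR-27a in WA replicate 3 at 2.24.

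Likeness of pattern was measured as the root-mean-square difference of log2(normalized value + 1) over the 6 libraries after each miRNA was centred on its mean. Among the 317 tested miRNAs outside the clusters, those closest to miR-23a-3p were miR-500a-5p at 0.47, miR-190a-5p at 0.57 and miR-365a-3p at 0.59, where the median was 2.41. Normalized values were low for miR-500a-5p, from 3.06 to 59.4 over the libraries, and for miR-190a-5p, from 5.71 to 40.6. The part of these low counts in their likeness was not tested. The passenger from the hairpin of miR-23a-3p, miR-23a-5p, was at 0.88, and miR-27a-3p from the same primary transcript was at 2.2. The miRNAs closest to miR-27b-3p were miR-7-5p at 0.31, miR-378a-3p at 0.43 and miR-140-5p at 0.55, where the median was 2.14. miR-27b-5p was at 0.50 and miR-27a-3p at 0.69 from it, so miR-27b-3p lay nearer to its passenger and to its seed partner than to miR-23b-3p at 1.41. It also lay nearer to miR-24-3p at 0.99, miR-23b-5p at 1.06 and miR-27a-5p at 1.35. miR-23a-3p, miR-23a-5p and miR-24-2-5p lay farther. The measure is not scaled by spread, so the narrow range of miR-23b-3p enters its distance. The points of these comparisons share libraries and size factors.

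Near the chromosome 19 cluster lie the hairpins of miR-181c and miR-181d. Of their 3 listed miRNAs all were tested, and 1, miR-181c-5p, passed with a limma adjusted p of 0.030, higher in WA. It had 0, 6 and 3 reads in vehicle-treated libraries and 8, 27 and 57 after WA. As normalized values these were 0, 1.71 and 0.917 against 46.4, 48.2 and 42.8, without overlap, and the log2 fold change was 4.75 (SE 0.89). The study also reported higher miR-181c-5p after WA by qRT-PCR. With single libraries left out it passed in 1 of 6 fits, that without WA replicate 3, and the limma adjusted p ran from 0.00202 to 0.220. The limma adjusted p was 0.643 for miR-181c-3p and 0.764 for miR-181d-5p.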

How the data were processed

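The 6 small RNA libraries, 3 for each treatment, came from MDA-MB-231 cells. The authors trimmed reads with Trim Galore, aligned them to GRCh38.p10 with Bowtie, set aside those of other noncoding RNA classes, assigned the remainder to mature human miRNAs and normalized with DESeq2. The deposited signal is a read count over the size factor of its library. Left unused were 4 deposited columns of the authors' own comparison, which hold a fold ratio, its log2 value, a p-value and an adjusted p-value.

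Each library's values had a common step, of which 100% were whole multiples to within 0.01, but too few lay at 1 step for a count model, so the edgeR and DESeq2 alternatives set for recovered reads were not run. limma 3.58.1 in R 4.3.3 was fitted to log2(normalized value + 1) for the 327 miRNAs that reached a value of 10 in 3 or more libraries, with a variance trend and no pairing. Tests were two-sided, and p was adjusted by Benjamini-Hochberg. Fold changes on this scale understate changes of low miRNAs. Within-library log2 ratios were fitted likewise without the trend, over all pairs whose names differ only in a or b (36 listed, 28 past the filter, 27 that varied) and over all hairpins with both arms. Single measures were compared by exact permutation tests, in which 3 against 3 cannot give p below 0.1. The fits were run on simulated data that held large changes and no outlying library. That checks the code and gives no error rate for these libraries. The methods call the replicates independent but name no separate cultures, and p-values measure the spread between these libraries. Library totals, from 156442 to 4778066 reads, assume that 1 step is 1 read. Sequences are those of RefSeq for GRCh38.p14, and annotation is GENCODE release 44. Python 3.11.15, numpy 2.4.6, scipy 1.17.1 and pandas 2.3.3 were used. Every miRNA that the rule finds is named. The members and lists were chosen with earlier results of these data known. The alternatives are listed with their effects below.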

Additional observations from a re-analysis of the deposited data

How the results depend on the processing

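The number of members at a limma adjusted p under 0.05, 0 of 10, was also 0 with total-count, upper-quartile and trimmed mean of M values scaling, with no filter, with a value of 10 in every library, without the variance trend and with pseudocounts of 0.1 and 10. With each library left out in turn it ran from 0 to 1, the 1 being miR-23a-3p without vehicle replicate 1, and it was 5 without vehicle replicate 1 and WA replicate 3 together. By the study's cutoff the number was 1. It was 0 with total-count scaling and without the trend, from 0 to 3 with each library left out (3 without vehicle replicate 1 and 0 without each of the others) and 4 without both libraries. Over all tested miRNAs the 18 at an adjusted p under 0.05 became 53 with no filter, 0 with a value of 10 in every library, 7 with either other pseudocount, from 0 to 147 with a library left out (147 without WA replicate 3, 21 without vehicle replicate 1 and 0 without each of the others), and 235 without both libraries. By the study's cutoff the 86 became 139 with no filter, 28 with a value of 10 in every library, from 46 to 167 with a library left out and 202 without both. The cause of these changes was not tested.

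Replicate numbers shared by the groups showed no sign of pairing the libraries. The deviations of same-numbered libraries from their group means correlated at -0.07, 0.06 and -0.09. With 3 libraries in a group, and with vehicle replicate 1 and WA replicate 3 standing apart, this check could not exclude a pairing. With the replicate number as a block, 0 members passed at an adjusted p under 0.05 and 0 met the study's cutoff, and 24 of all tested miRNAs passed. The paralogue difference of miR-23a-3p/miR-23b-3p had a limma adjusted p of 0.272 under the block.

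Without vehicle replicate 1 and WA replicate 3 together, the paralogue differences were 3.64 for miR-23a-3p/miR-23b-3p, 4.52 for miR-23a-5p/miR-23b-5p, 1.48 for miR-27a-3p/miR-27b-3p and 1.37 for miR-27a-5p/miR-27b-5p, all past the threshold. With single libraries left out they kept their direction, at 2.07 to 3.17, 0.88 to 3.28, 0.69 to 1.42 and 2.12 to 3.43, and none passed. The arm differences of miR-23a, miR-23b and miR-27a changed sign under some alternative. Without both libraries they were -0.31 for miR-23a, 0.57 for miR-23b and 0.47 for miR-27a. With single libraries left out they ran from -0.32 to 1.00 for miR-23a, -0.66 to 0.56 for miR-23b, -1.71 to -0.17 for miR-27a and 0.54 to 0.95 for miR-27b. The log2 difference in miR-27b-3p over miR-23b-3p ran from -1.70 to 0.19, that in miR-27a-3p over miR-23a-3p from -3.82 to -0.88, and the cluster difference from 1.1 to 2.11. Log2 fold changes that changed sign with a library left out ran from -0.77 to 0.45 for miR-23b-5p, -3.55 to 1.14 for miR-24-2-5p, -0.87 to 0.84 for miR-27a-3p and -0.33 to 2.22 for miR-27a-5p. Without both libraries those of miR-27a-3p and miR-27a-5p were -0.15 and -0.62. The other members kept their sign, from 1.60 to 2.95 for miR-23a-3p, 1.05 to 2.51 for miR-23a-5p, -0.77 to -0.13 for miR-23b-3p, 0.25 to 1.46 for miR-24-3p, -1.91 to -0.26 for miR-27b-3p and -2.46 to -1.12 for miR-27b-5p. The lowest read counts among the members, apart from the 0 of miR-24-2-5p, were the 8 reads of miR-23b-5p in each of WA replicates 1 and 2, and the part of depth in its spread was not tested. For miR-181c-5p the limma adjusted p was 0.0941 with a pseudocount of 0.1 and 0.0616 with the replicate block.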

Other observations

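The hairpin of MIR3074 lies on the opposite strand over MIR24-1, the chromosome 9 hairpin of miR-24. Its product miR-3074-5p, described after its values were seen, stood at 6.77, 35.4 and 24.1 (normalized value) in vehicle-treated libraries 1 to 3. It was listed at 0 in WA replicates 1 and 2, where a count of 0 allows up to 17.4 and 5.36, and was at 34.6 in WA replicate 3. Its limma adjusted p was 0.341, and whether the counting used strand is not given in the sources used here.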
